A study of Mus musculus with 24 samples.

Results

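The tachykinin system is a family of small signalling peptides and their receptors. Its 5 genes described here are the peptide precursor genes Tac1 and Tac2 and the receptor genes Tacr1, Tacr2 and Tacr3. They were taken by symbol from 18821 genes measured in the prefrontal cortex of 24 mice, and each is represented by its only probe set with a single symbol. The set was chosen by the difference in Tacr2 level between the genotypes in these same arrays, so the differences between genotypes of the 5 genes are given as a description without a test. The mutants (MUT, 12 mice) were heterozygous for the Df(16)A deletion, which the labels write as Df16(A)+/-, and were compared with wild-type littermates (WT, 12 mice). All were males of 8 weeks on a C57BL6/J background, with no other allele or treatment named. The deletion removes a single copy of a segment of chromosome 16 that corresponds to the human 22q11.2 microdeletion. The 5 genes lie on chromosomes 3, 6 and 10, outside that segment.

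Tachykinin precursors are cut into short peptides that share a common carboxyl end. Tac1 gives substance P and neurokinin A, and Tac2 gives neurokinin B. The peptides act on receptors coupled to the G protein Gq, which activates phospholipase C and releases calcium from stores; substance P prefers the receptor encoded by Tacr1, neurokinin A that of Tacr2 and neurokinin B that of Tacr3. In the mouse cortex Tac1 and Tac2 are known from groups of inhibitory interneurons, Tac1 is also abundant in striatal projection neurons, and Tacr1 is known from interneurons that contain somatostatin and nitric oxide synthase. Tacr2 is best known from smooth muscle of the gut, airways and bladder.

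Each value is an RMA expression level on the log2 scale, 1 per gene and mouse. Array medians lay between 6.71 and 6.82, and correlations between arrays across genes between 0.994 and 0.997. The mean level of 25 genes of the deleted segment, which checks the genotype labels, lay between 7.83 and 7.95 in the MUT mice and between 8.37 and 8.45 in the WT mice, without overlap. The mean of 7 measured markers of cortical excitatory neurons was 10.43 ± 0.04 (SD, n = 12) in MUT mice and 10.44 ± 0.04 in WT mice. The table gives no detection call, so none of these genes can be called absent. Levels of different probe sets are not compared as amounts of RNA. The receptors were dim: the mean level exceeded that of 36.8% of genes for Tacr1, 30.5% for Tacr2 and 11.2% for Tacr3. The tissue was measured in bulk, so fewer cells of a type and less RNA per cell cannot be told apart. The labels number the samples as replicates and do not state that each came from its own animal, so p-values measure the spread between these samples, called mice here, which may in part be technical. Mutant replicates 5, 9 and 10 lay apart from the other arrays in earlier results of these data, and values without them are given where they differ.

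The sequences just before the annotated transcription start of 3 genes are shown for the results that follow: Tacr2, on whose difference the comparison of genotypes turns, and Tac2 and Npy, whose levels varied together among mice. They are the 250 bases before the start on the plus strand of the RefSeq annotation, build GRCm38.p6, at chr10:62252188-62252437 for Tacr2, chr10:127724228-127724477 for Tac2 and chr6:49822460-49822709 for Npy. Capitals mark matches on either strand to 6 motifs: the cyclic AMP response element TGACGTCA, the short form TGACG (which the full element contains), the E-box CACGTG, the TATA box TATAAA, the CCAAT box CCAAT and the GC box GGGCGG.
Tacr2: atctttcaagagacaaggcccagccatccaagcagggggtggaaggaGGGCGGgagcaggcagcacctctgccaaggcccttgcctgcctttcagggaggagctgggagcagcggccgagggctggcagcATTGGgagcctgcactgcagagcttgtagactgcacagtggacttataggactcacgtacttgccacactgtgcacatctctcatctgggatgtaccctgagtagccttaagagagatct
Tac2: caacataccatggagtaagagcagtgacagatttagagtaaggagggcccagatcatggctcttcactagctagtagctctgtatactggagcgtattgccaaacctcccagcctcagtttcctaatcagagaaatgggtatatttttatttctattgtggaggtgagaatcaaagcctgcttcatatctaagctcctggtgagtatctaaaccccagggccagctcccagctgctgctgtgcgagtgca
Npy: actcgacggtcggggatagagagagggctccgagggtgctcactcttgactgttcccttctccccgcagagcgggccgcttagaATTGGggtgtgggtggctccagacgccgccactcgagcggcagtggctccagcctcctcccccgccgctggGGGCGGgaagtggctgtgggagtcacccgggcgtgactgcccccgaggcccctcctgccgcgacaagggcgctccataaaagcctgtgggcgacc
The Tacr2 and Npy windows each held a GC box and a CCAAT box in reverse orientation, motifs found in 32.7% and 33.9% of 32841 annotated windows of this length. The Tac2 window held none of the 6 motifs. Of the other members, Tac1, Tacr1 and Tacr3 each held the short form TGACG, which 17.8% of all windows contain. Tac1 also held a CCAAT box, a GC box and an E-box, the last found in 6.02% of windows, and Tacr3 a TATA box, found in 12.4%. The full element TGACGTCA, found in 1.55%, was in none of the windows of the 5 genes and Npy. These matches describe letters and are not shown to be sites of binding.

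Among the receptors, Tacr2 was higher in MUT mice. Its level lay between 5.70 and 6.29 in MUT mice, with a median of 6.08, and between 5.26 and 5.97 in WT mice, with a median of 5.65. All 12 MUT mice lay above the WT median and 7 of them above the highest WT mouse, while 7 WT mice lay below the lowest MUT mouse, so the groups overlapped in part. The mean was 6.02 ± 0.17 (SD, n = 12) in MUT mice and 5.65 ± 0.27 in WT mice. The log2 difference, MUT minus WT, was 0.37 ± 0.09 (SE, limma), with a 95% interval of 0.19 to 0.54, which is a fold of 1.29 (1.14 to 1.46). The remaining 5 WT mice lay within the range of the MUT mice, as the plot of levels by mouse shows.

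Tacr1, the substance P receptor, overlapped between the genotypes and reached higher in some MUT mice. It lay between 6.12 and 6.75 in MUT mice (median 6.44) and between 6.15 and 6.51 in WT mice (median 6.34), with 4 MUT mice above the highest WT mouse. The difference was 0.11 ± 0.06 on the log2 scale (95% interval -0.005 to 0.23), and 0.06 without mutant replicates 5, 9 and 10. Tacr3, the neurokinin B receptor, lay between 4.39 and 4.85 in MUT mice (median 4.61) and between 4.17 and 4.78 in WT mice (median 4.43). Its difference was 0.11 ± 0.07 (95% interval -0.02 to 0.25). Of 12 MUT mice, 9 lay above the WT median for Tacr1 and 10 for Tacr3. For Tacr3, 5 WT mice lay below the lowest MUT mouse and 1 MUT mouse above the highest WT mouse. The groups overlapped widely for both of these receptors, and both intervals include 0.

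The precursors had nearly equal levels in the genotypes. Tac1 lay between 7.57 and 7.94 in MUT mice (median 7.68) and between 7.50 and 7.92 in WT mice (median 7.75), a difference of -0.03 ± 0.05 (95% interval -0.13 to 0.08). Tac2 lay between 8.96 and 9.35 in MUT mice (median 9.10) and between 8.77 and 9.34 in WT mice (median 9.14), a difference of 0.03 ± 0.06 (95% interval -0.09 to 0.14). For both precursors 1 MUT mouse lay above the highest WT mouse and 2 WT mice below the lowest MUT mouse. Tac4, the remaining tachykinin precursor gene, which encodes hemokinin, had 4.95 ± 0.17 (SD, n = 12) in MUT mice and 4.89 ± 0.17 in WT mice, a log2 difference of 0.05 ± 0.07 (SE; limma, adjusted p = 0.795).

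**Figure D1:**
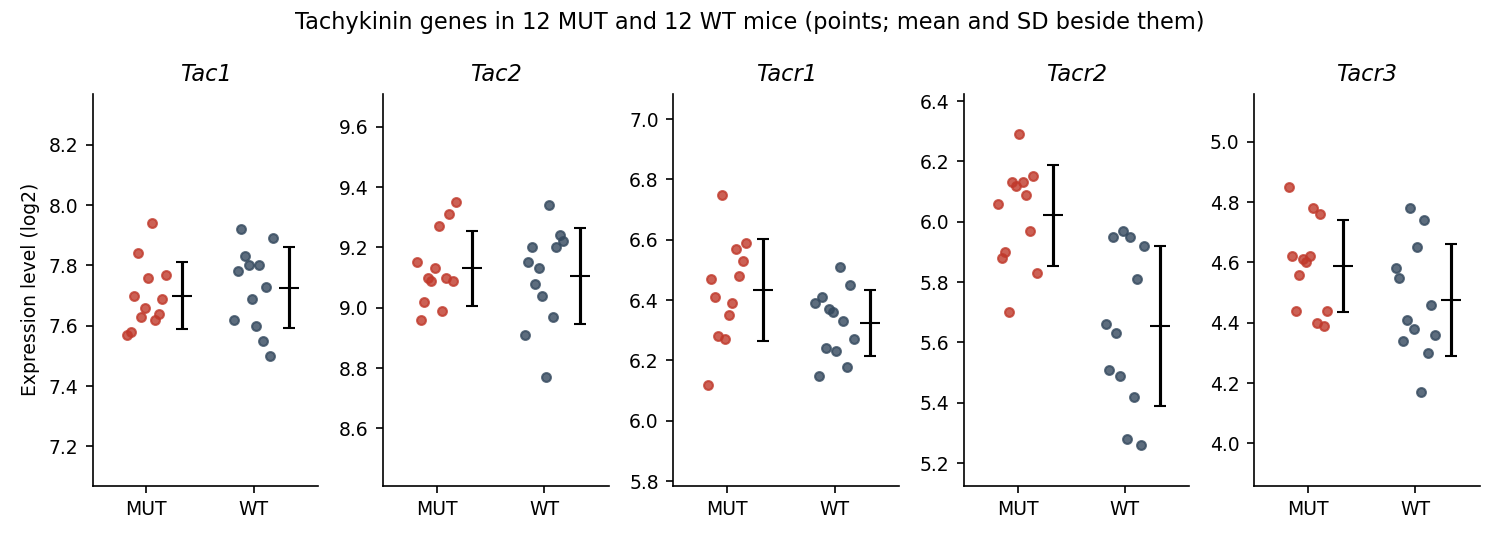
Expression level on the log2 scale (vertical axis, the same span in each panel) of the 5 tachykinin genes in 12 MUT mice and 12 WT mice. Each point is a mouse, and the bar beside the points is the mean with its SD. For Tacr2, 7 MUT mice lie above every WT mouse, while for Tac1 and Tac2 1 MUT mouse does.

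In the fit over all genes, 143 of 18821 genes (0.760%) had an adjusted p under 0.05, of which 100 (0.531%) were higher and 43 (0.228%) lower in MUT mice. Of the 5 tachykinin genes 1 lay past that threshold, Tacr2, which is the value it was chosen for. The median difference over all genes was -0.001. Other than leaving out a single mouse, 13 alternative settings tested Tacr2. Its difference kept between 0.34 and 0.38 in them. Some of these settings cannot move the difference: another variance prior, the filter on dim genes, other uses of its only probe set and a replicate block. Tacr2 passed the threshold in 9 of the 13. The settings in which it did not pass were the replicate block, arrays 1 to 12 alone and arrays 13 to 24 alone, and the one without mutant replicates 5, 9 and 10. In the last of these its difference was 0.35.

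Tacr2 stood close to the threshold: leaving out a single mouse gave differences of 0.33 to 0.40, and the gene passed in 10 of 24 such fits. The call was lost without any one of MUT replicates 1, 5, 6, 7, 8, 9 and 11 or of WT replicates 1, 2, 4, 5, 7, 9 and 11. Its spread within genotype was large, with a pooled SD of 0.222 that exceeded that of 93.4% of genes, against a median of 0.118 over all genes.

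The labels carry a running array number, and the genotypes were compared within arrays 1 to 12 (7 MUT and 5 WT mice) and within arrays 13 to 24 (5 MUT and 7 WT mice). For Tacr2 the difference was 0.36 ± 0.10 (SE) in the first set and 0.37 ± 0.14 in the second. In arrays 1 to 12 the means were 6.01 ± 0.20 (SD) in MUT mice and 5.65 ± 0.19 in WT mice, and in arrays 13 to 24 they were 6.03 ± 0.13 in MUT mice and 5.66 ± 0.33 in WT mice. The change in the difference between the sets was 0.01 ± 0.18 (limma interaction, adjusted p = 0.994). Tacr1 differed by 0.07 ± 0.09 and 0.18 ± 0.06 in the sets, and Tacr3 by 0.08 ± 0.08 and 0.12 ± 0.11.

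Of the precursors, Tac1 had a difference of -0.11 ± 0.06 in arrays 1 to 12 and of 0.05 ± 0.08 in arrays 13 to 24, so its sign depended on the set. The interaction for Tac1 was 0.16 ± 0.10 (limma, adjusted p = 0.821). Tac2 differed by 0.01 ± 0.06 and 0.06 ± 0.10. No gene of the 18821 passed the interaction test by limma, and 1105 had an unadjusted p under 0.05.

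**Figure D2:**
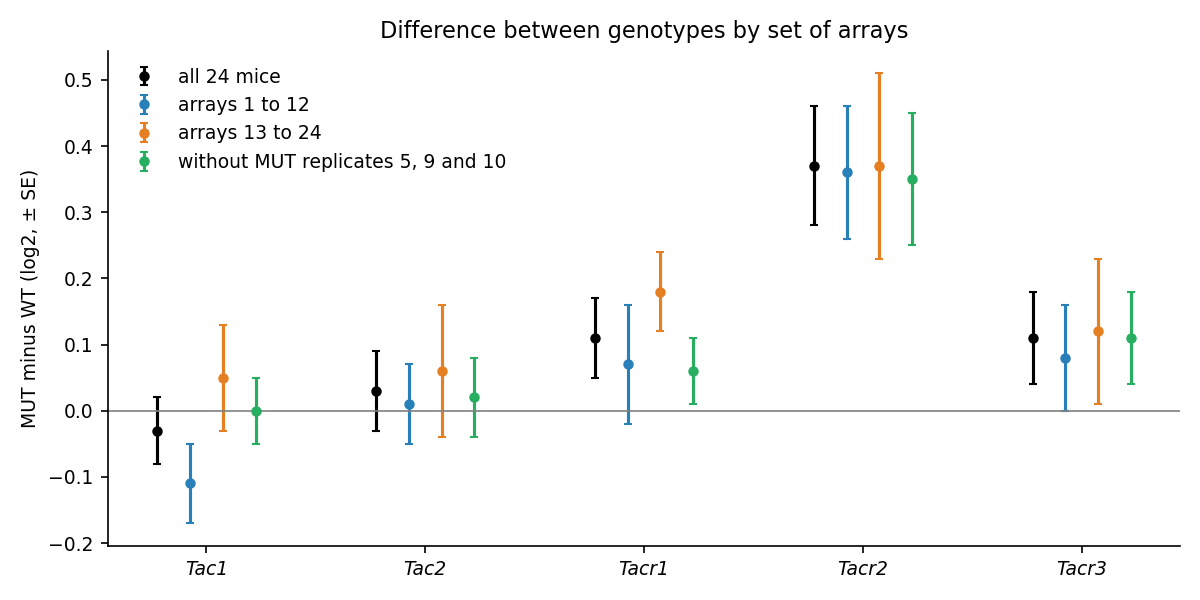
Difference in level between the genotypes, MUT minus WT on the log2 scale with its SE (vertical axis), for the 5 tachykinin genes and 4 sets of arrays. Tacr2 lies between 0.35 and 0.37 in each set, and Tac1 lies on either side of 0.

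None of the genes next to Tacr2 on chromosome 10 passed the test. Hk1, a hexokinase gene that follows Tacr2 in the gene table, had 11.35 ± 0.05 (SD, n = 12) in MUT mice and 11.35 ± 0.04 in WT mice. Tspan15, a tetraspanin gene on the other side, had 7.30 ± 0.11 in MUT mice and 7.35 ± 0.16 in WT mice. The log2 differences of the 3 nearest measured genes on each side lay between -0.08, for Hkdc1, and 0.003, for Hk1, and none passed (limma, adjusted p between 0.413 and 0.979). The other neighbours were Neurog3 (-0.01), Fam241b (-0.01) and Vps26a (-0.06).

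Of 19 listed genes of Gq signalling and receptor desensitization, which act downstream of the receptors, 16 were measured. Among these 1 fell and none rose, against 0.228% and 0.531% of all genes, and 15 did not pass, with a median difference of -0.02. Plcb4, which encodes a phospholipase C activated by Gq, was the gene that fell. It lay between 10.13 and 10.49 in MUT mice, with a median of 10.25, and between 10.34 and 10.51 in WT mice, with a median of 10.40. In 10 of 12 MUT mice the level was below the lowest WT mouse. The log2 difference was -0.15 ± 0.03 (SE; limma, adjusted p = 0.0227). It was -0.13 in arrays 1 to 12 and -0.18 in arrays 13 to 24 and passed in neither set alone (limma, adjusted p = 0.50 and 0.255). The gene passed in each of the 24 fits that left out a single mouse, with adjusted p between 0.000982 and 0.0493. Under the other alternatives Plcb4 passed in 8 of 14, with adjusted p by limma between 0.00556 and 0.50. Some of these settings, such as another variance prior and the filters on dim genes, cannot move its difference. The adjusted p was 0.0536 with quantile normalization, 0.0852 with a replicate block, 0.111 with arrays centred on the median and 0.119 without mutant replicates 5, 9 and 10.

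Examples of the genes of that list that did not pass follow. The receptor kinase gene Grk3 had a difference of 0.06 ± 0.03, the calcium-store channel gene Itpr3 one of -0.07 ± 0.04 and the Gq family gene Gna11 one of -0.04 ± 0.02 (limma, adjusted p = 0.336, 0.466 and 0.602). Gnaq itself, named after its value was seen, had 11.33 ± 0.05 (SD, n = 12) in MUT mice and 11.34 ± 0.04 in WT mice.

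Genes that make and remove the peptides were examined next. Of 9 measured genes of precursor processing and dense-core vesicles none passed, with a median of -0.01; the lowest was Pcsk1, a prohormone convertase, at -0.12 ± 0.06 (limma, adjusted p = 0.418). The other 3 with the smallest p were Scg3 (0.03), Scg5 (0.02) and Cpe (-0.02), which act in peptide sorting and processing. Of 9 peptidases that can cleave tachykinins none passed, with a median of 0.01 and differences between -0.07 and 0.07. Prep, a proline-directed peptidase, had 0.03 ± 0.02, and Thop1, Dpp4 and Ece1 had -0.06, 0.07 and -0.04.

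Neuropeptide precursors beside Tac1 and Tac2 were followed as a comparison. Of 16 measured precursor genes, Tac4 among them, none passed, with a median of 0.03 and differences between -0.14 and 0.29. The opioid precursors lay in opposite directions, with Pdyn at 0.13 ± 0.05 and Penk at -0.14 ± 0.05 (limma, adjusted p = 0.241 and 0.257). Adcyap1, the precursor of the peptide PACAP, had 0.14 ± 0.07, and Grp, which encodes gastrin-releasing peptide, had 0.29 ± 0.14. Of 29 neuropeptide receptor genes none passed, with a median of -0.004 and differences between -0.18 and 0.16. The smallest p-values were those of the somatostatin receptor Sstr1 (-0.12), Kiss1r (-0.10), the oxytocin receptor Oxtr (0.16) and Sstr3 (-0.11).

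**Figure D3:**
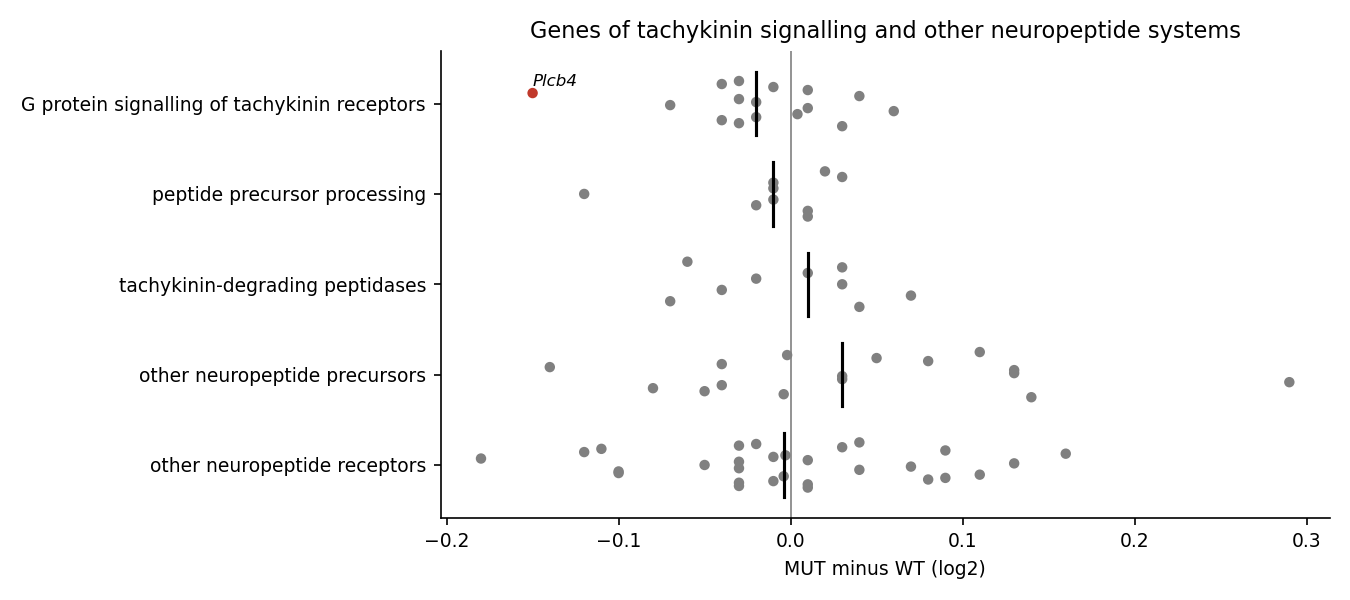
Difference in level between the genotypes, MUT minus WT on the log2 scale (horizontal axis), for each gene of 5 lists. Points are genes, black bars are list medians, and the red point is Plcb4, the only gene of these lists past the adjusted threshold in the fit over all genes.

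Because Tac1 is abundant in striatum and Tac2 in interneurons and the habenula, markers of these sources were measured beside the tachykinin genes. None of 11 striatal markers passed, but 6 had an unadjusted p under 0.05 (limma), as did 2245 of all 18821 genes. Ppp1r1b (0.13), Pdyn (0.13), Drd2 (0.12) and Gpr6 (0.10) lay higher in MUT mice, and Penk (-0.14) and Scn4b (-0.18) lower. Differences in opposite directions offset each other in the list mean, so it does not show that single markers were equal. The striatal mean was 7.80 ± 0.06 (SD, n = 12) in MUT mice and 7.78 ± 0.05 in WT mice. For 9 habenular and thalamic markers it was 7.35 ± 0.04 in MUT mice and 7.35 ± 0.04 in WT mice, and for 5 olfactory bulb markers 6.13 ± 0.29 in MUT mice and 6.15 ± 0.39 in WT mice. Tacr2 is best known from smooth muscle of the gut, airways and bladder. The mean of 10 markers of smooth muscle and pericytes was 7.84 ± 0.09 in MUT mice and 7.83 ± 0.09 in WT mice, with single differences between -0.18 and 0.13. None of the markers of these lists passed, nor did any of 7 cortical excitatory markers.

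Among interneuron markers a single gene passed, where 0.531% of all genes passed as higher and 0.228% as lower. In the list of somatostatin and nitric oxide synthase interneurons 1 of 6 rose, Nos1, the neuronal nitric oxide synthase, by 0.20 ± 0.04 on the log2 scale (limma, adjusted p = 0.0227; 0.0614 without mutant replicates 5, 9 and 10), and 5 did not pass. Within arrays 1 to 12 and 13 to 24 alone the Nos1 difference was 0.19 and 0.22 and did not pass. Of the 6 genes of this list 5 had differences above 0. The list mean was 8.97 ± 0.06 (SD, n = 12) in MUT mice and 8.90 ± 0.09 in WT mice. It ranged from 8.88 to 9.07 in MUT mice and from 8.74 to 9.01 in WT mice. None of 6 Vip and Htr3a interneuron markers and none of 7 Pvalb and general GABA markers passed. The 7 blood and granulocyte markers all lay below 0, with a median of -0.46 and none passing; their mean ranged from 5.74 to 6.57 in MUT mice and from 5.98 to 8.86 in WT mice. The part of these cell types in the tachykinin values between genotypes was not tested. With the striatal mean as a term the difference was -0.02 for Tac1 and 0.37 for Tacr2. That mean was nearly equal in the genotypes, so the term could move these differences little.

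Variation among mice of the same genotype is separate from the mean difference that singled out Tacr2, though its spread enters the SE of that difference. For each gene the mean of the genotype was subtracted, and the deviations of the 24 mice were correlated, with two-sided permutation within genotype. None of the 10 pairs of tachykinin genes passed after Benjamini-Hochberg adjustment. The closest were Tacr2 with Tacr3, with r = -0.42 (p = 0.0523, adjusted p = 0.242) and rho = -0.44 (p = 0.0386, adjusted p = 0.26), and Tac1 with Tacr2, with r = 0.41 (p = 0.0642, adjusted p = 0.242) and rho = 0.37 (p = 0.0993, adjusted p = 0.26). Without the 2 mice farthest from the median of the first gene these values of r were -0.42 and 0.27.

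Within genotypes the pairs diverged. Tacr2 and Tacr3 had r = 0.17 among MUT mice and -0.74 among WT mice, and Tac1 and Tacr2 had -0.10 among MUT mice and 0.68 among WT mice; the difference between genotypes was not tested. Within arrays 1 to 12 and 13 to 24 the values were -0.18 and -0.56 for Tacr2 and Tacr3, and 0.01 and 0.67 for Tac1 and Tacr2. For precursor and preferred receptor, Tac1 and Tacr1 had r = -0.12 (p = 0.57, adjusted p = 0.601) and rho = -0.08 (p = 0.705, adjusted p = 0.705), with -0.11 in arrays 1 to 12 and -0.29 in arrays 13 to 24. Tac2 and Tacr3 had r = -0.39 (p = 0.0728, adjusted p = 0.242) and rho = -0.31 (p = 0.156, adjusted p = 0.291), with 0.05 and -0.55 in these sets of arrays and -0.20 without the 2 farthest mice.

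Deviations of the 5 genes were also set against the mean of each of 9 marker lists, 45 relations in all, and none passed after adjustment. For relations with a list, here and below, the 2 farthest mice left out were those farthest from the median of the list mean. They were not chosen by the level of the tachykinin gene. Tac2 had its highest r with the Vip and Htr3a interneuron list, at 0.57 (p = 0.00569, adjusted p = 0.135) with rho = 0.52 (p = 0.0134, adjusted p = 0.235). It was 0.48 in MUT mice, 0.63 in WT mice, 0.43 in arrays 1 to 12, 0.61 in arrays 13 to 24 and 0.48 without the 2 farthest mice, the same sign throughout. Among single markers of that list Tac2 had r = 0.60 with Vip, which marks a main class of cortical interneurons, and 0.49 with Calb2. The other markers of the list had values between -0.02, for Npas1, and 0.34, for Crh. With the somatostatin and nitric oxide synthase list Tac2 had r = 0.55 (p = 0.00948, adjusted p = 0.135) and rho = 0.49 (p = 0.0218, adjusted p = 0.245), and r = 0.36 without the 2 farthest mice. It was 0.09 among MUT mice and 0.78 among WT mice, a difference that was not tested, and 0.14 and 0.73 in the 2 sets of arrays. This list holds Npy, with which Tac2 had r = 0.83. The other markers of the list lay between -0.01, for Crhbp, and 0.45, for Sst, with 0.22 for Nos1.

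Tacr1 had its highest r with the somatostatin and nitric oxide synthase list, at 0.47 (p = 0.012, adjusted p = 0.135) with rho = 0.49 (p = 0.0147, adjusted p = 0.235) and r = 0.57 without the 2 farthest mice. It was 0.82 among MUT mice and 0.21 among WT mice, a difference that was not tested, and 0.52 and 0.39 in the 2 sets of arrays. With single genes of the list Tacr1 had r = 0.42 for Nos1, 0.40 for Sst and 0.28 for Chodl, a marker of the somatostatin neurons that contain nitric oxide synthase. The other genes of the list had between 0.11, for Cort, and 0.25, for Npy.

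Tacr3 had a negative value, with r = -0.52 against the Vip and Htr3a list (p = 0.012, adjusted p = 0.135), rho = -0.50 (p = 0.0156, adjusted p = 0.235) and r = -0.48 without the 2 farthest mice. The sign was the same in both genotypes, at -0.48 in MUT mice and -0.55 in WT mice, and in both sets of arrays, at -0.47 and -0.56. With the Pvalb and general GABA list Tacr3 had r = 0.13 (p = 0.544, adjusted p = 0.791) and rho = 0.19 (p = 0.378, adjusted p = 0.896), with 0.15 and 0.19 in the sets of arrays and 0.12 without the 2 farthest mice. Single markers of that list lay between -0.44, for Lhx6, and 0.38, for Syt2. Tac1 had its highest r with the cortical excitatory list, at 0.47 (p = 0.0236, adjusted p = 0.212) with rho = 0.28 (p = 0.201, adjusted p = 0.803). It was 0.59 among MUT mice, 0.39 among WT mice, 0.64 and 0.52 in the sets of arrays and 0.26 without the 2 farthest mice. Tac1 had r = -0.04 with the striatum list (p = 0.837, adjusted p = 0.942) and rho = -0.05 (p = 0.83, adjusted p = 0.972), with -0.32 in arrays 1 to 12, -0.06 in arrays 13 to 24 and -0.11 without the 2 farthest mice. Its r with single striatal markers ran in both directions, from -0.47, for Ppp1r1b, to 0.37, for Pdyn.

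Tacr2 was farthest from 0 with the Pvalb and general GABA list, at r = -0.38 (p = 0.0487, adjusted p = 0.313) with rho = -0.36 (p = 0.0706, adjusted p = 0.405). It was -0.31 among MUT mice, -0.51 among WT mice, -0.21 and -0.52 in the sets of arrays and -0.24 without the 2 farthest mice. Tacr2 had r = 0.20 with the smooth muscle and pericyte list (p = 0.352, adjusted p = 0.776) and rho = 0.17 (p = 0.43, adjusted p = 0.909), with 0.20 and 0.22 in the sets of arrays and 0.06 without the 2 farthest mice. It had r = -0.18 with the blood list (p = 0.51, adjusted p = 0.791) and rho = 0.01 (p = 0.974, adjusted p = 0.974), with 0.42 and -0.34 in the sets of arrays and 0.18 without the 2 farthest mice.

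**Figure D4:**
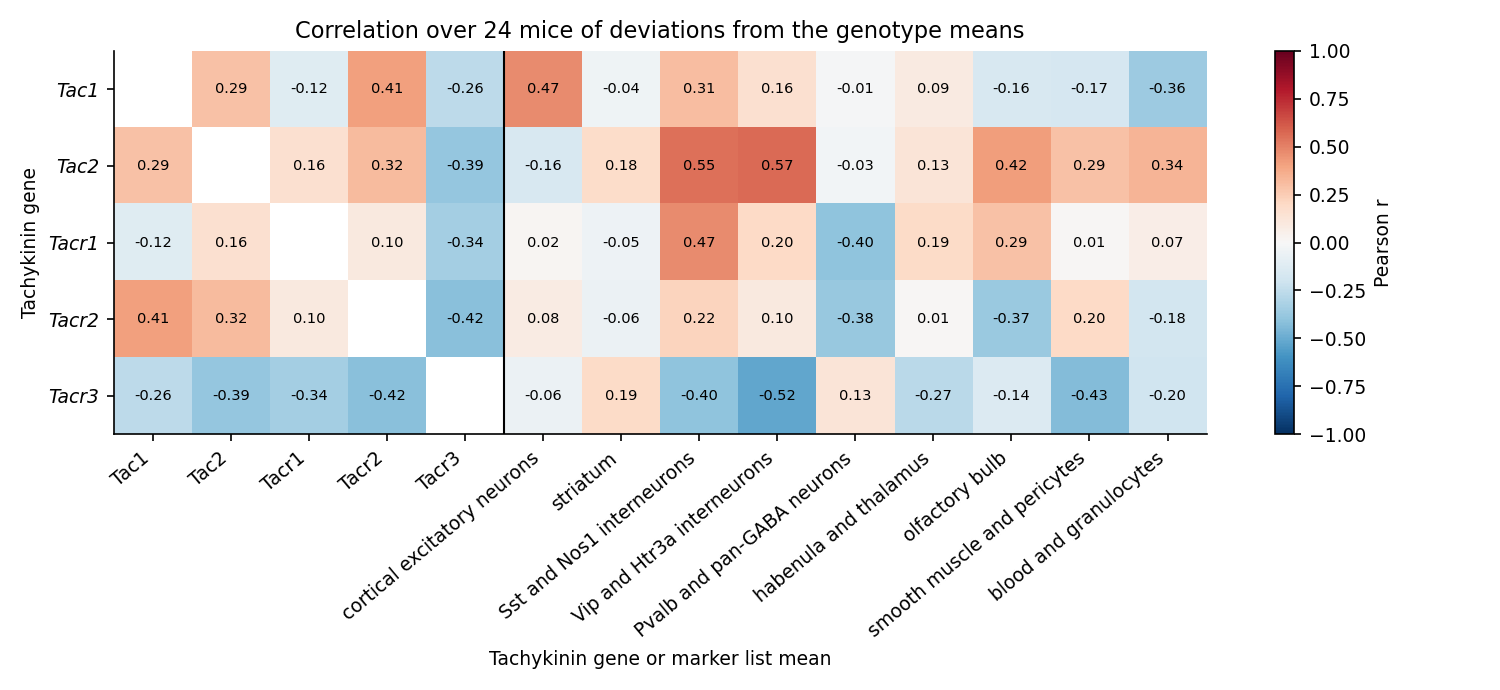
Pearson r over 24 mice of deviations from the genotype means, for the 5 tachykinin genes (rows) against each other and against the means of 9 marker lists (columns; colour scale from -1 to 1). The highest values against a marker list are those of Tac2 with the interneuron lists, at 0.57 and 0.55, and the lowest is that of Tacr3 with the Vip and Htr3a list, at -0.52.

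The genes whose deviations were most like those of each tachykinin gene were found by r over the 24 mice among all genes. These values are descriptions: the mice share arrays and processing, and the highest of many values is high by selection. Tac2 was closest to Mt1, a metallothionein gene, with r = 0.87, followed by Npy, the neuropeptide Y precursor of cortical interneurons, with 0.83. Tac2 and Npy had r = 0.74 among MUT mice and 0.90 among WT mice, and 0.83 without mutant replicates 5, 9 and 10. The 3 next genes were Cyb5r3 (0.81), Mmd2 (0.79) and Gm2a (0.76). The MUT minus WT differences of these 5 genes lay between -0.01 and 0.08, and Npy had 11.26 ± 0.12 (SD, n = 12) in MUT mice and 11.22 ± 0.15 in WT mice.

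**Figure D5:**
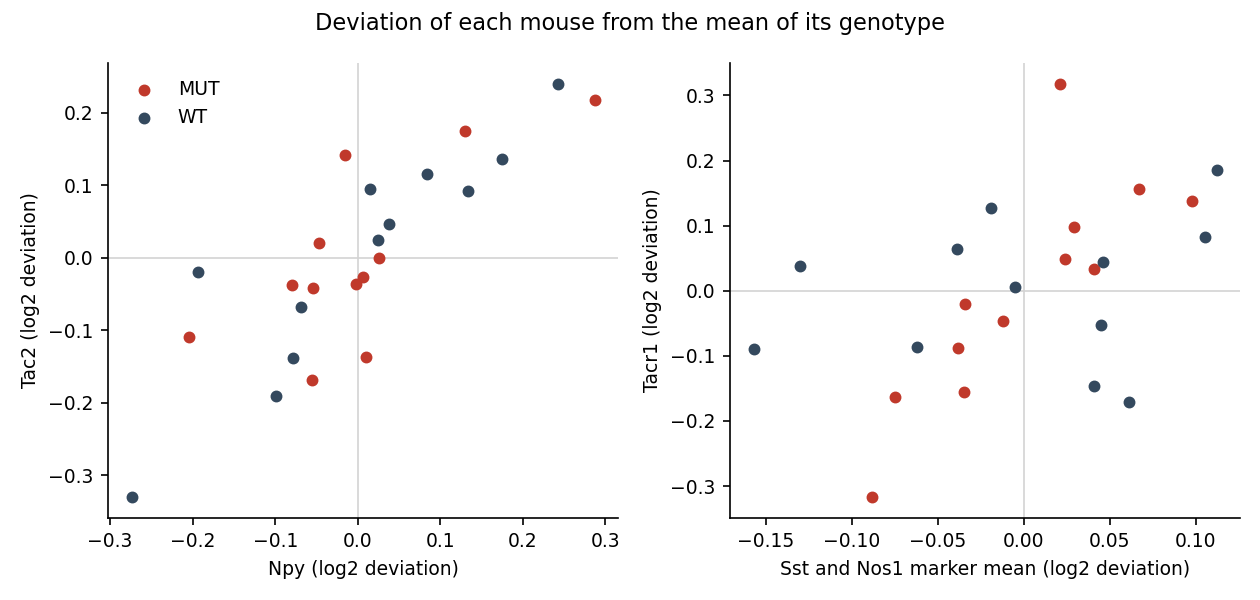
Log2 deviation of each mouse from the mean of its genotype. Left, Tac2 against Npy, with r = 0.83 over 24 mice; right, Tacr1 against the mean of 6 Sst and Nos1 interneuron markers, with r = 0.82 among MUT mice and 0.21 among WT mice.

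Tacr2 was closest to Fuz, a planar polarity gene of cilia, with r = 0.75, and then to Irs3 (0.73), Mycl (0.71), St14 (0.69) and Aebp2 (0.69). With Fuz it had 0.82 among MUT mice and 0.75 among WT mice. The differences of these genes between genotypes lay between -0.05 and 0.05, against 0.37 for Tacr2. Tacr1 was closest to Mir450b, a miRNA precursor gene, with 0.79, then Tcea3 (0.77), Syt17 (0.73), the chemokine receptor gene Ackr3 (0.73) and Bpifb4 (0.72). Mir450b and Bpifb4 were dim, with mean levels of 2.70 and 4.77, below the 25th percentile of all genes, 5.45.

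Tac1 was closest to Snap47, Yif1b and Cops3, each at 0.78, followed by Taf10 and Nprl2 at 0.77; no striatal marker of the list was among them. Tacr3 was closest to Agr3 (0.67), Plekhb1 (0.67), the neurofilament gene Nefl (0.66), Lce6a (0.65) and the glucocorticoid receptor gene Nr3c1 (0.64). Agr3, Lce6a and Tacr3 itself were below the 25th percentile of mean levels, with 3.64 for Agr3 and 4.18 for Lce6a.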

How the data were processed

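The values the authors deposited are on the log2 scale, with a value for every probe set in each sample, and were made from Affymetrix arrays by RMA, per the submitters' processing notes. Its version and the genome build: not given in the sources used here. Per the labels, 100 ng of total RNA was labelled. Array number, not read depth, limits the precision, and RMA compresses differences of dim probe sets.

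Of 35556 probe sets, 21219 had 1 symbol in the platform annotation, 1880 several and 12457 none listed. A gene was its brightest such probe set, which gave 18821 genes; 18791 matched a RefSeq table of GRCm38.p6 for names, chromosomes and neighbours. Genotypes were compared with limma 3.58.1 in R 4.3.3 (lmFit, eBayes), with Benjamini-Hochberg adjustment over all genes and a threshold of 0.05. Correlations used 100000 permutations. Both steps were tested on simulated data. Some listed genes were not analysed here.

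Members, lists and tests were chosen with earlier results of these data known. Named were all members, Tac4, 3 measured genes on each side of Tacr2, up to 4 genes with the smallest p of each list and the 5 genes most like each member. Alternatives are given in the closing section.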

Additional observations from a re-analysis of the deposited data

How the results depend on the processing

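The differences of the 5 tachykinin genes moved by less than 1 SD between replicates under each alternative run: quantile normalization, median centring, a variance trend, array weights, filters on dim genes, other uses of probe sets, a replicate block, array terms and subsets, the striatal mean as a term, and leaving out mice. By their design, the variance trend, the filters, the uses of probe sets and the replicate block cannot move these differences. For Tac1, Tac2, Tacr1 and Tacr3 the SD exceeded the difference itself. Such a difference could vanish or change sign and still move by less than 1 SD. In settings other than leaving out a single mouse, Tac1 ran from -0.11 to 0.05 and Tacr1 from 0.06 to 0.18. Leaving out a single mouse gave -0.05 to -0.01 for Tac1, -0.003 to 0.05 for Tac2, 0.08 to 0.14 for Tacr1, 0.33 to 0.40 for Tacr2 and 0.08 to 0.14 for Tacr3. The number of tachykinin genes past the threshold, 1 in all mice, was 0 with the replicate block, in arrays 1 to 12, in arrays 13 to 24 and without mutant replicates 5, 9 and 10, and 0 to 1 when a single mouse was left out; the subsets of arrays hold fewer mice, and for the block the cause was not tested. The filter at the median level removed the 3 receptors, so it gave no value for them. The filter at the 25th percentile removed Tacr3. The number of listed pathway genes that were lower, 1 in all mice, was 0 with quantile normalization, median centring, the replicate block, in arrays 1 to 12, in arrays 13 to 24, and without mutant replicates 5, 9 and 10, and 1 when any single mouse was left out. Over all genes, 100 higher and 43 lower became 112 and 66 with a variance trend, 48 and 67 above the median level, 104 and 66 above the 25th percentile, 35 and 23 in arrays 1 to 12, and 35 and 22 in arrays 13 to 24; leaving out a single mouse gave 82 to 108 higher and 37 to 56 lower. With the replicate block, the difference of Tacr2 was 0.37 ± 0.09 (SE) and the counts were 110 and 37. Nothing in the labels says that a replicate number marks a litter. Mice of the same number had correlations of deviations between -0.08 and 0.31 over 12 pairs. Their median was 0.10, against -0.01 for MUT and WT mice of different numbers. Of 24 mice, 5 correlated best with the mouse of their own number. Whether mice of the same number share a source was not tested. No correlation passed with quantile normalization or without mutant replicates 5, 9 and 10.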
